A study of Mus musculus with 25 samples.

Results

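Contacts captured with an antibody against KLF4 and contacts captured with an antibody against H3K27ac were compared in mouse embryonic stem (ES) cells. Each antibody has 1 list of bin pairs, that is, pairs of 10 kb stretches of a chromosome that were ligated to each other. A bin pair was placed by exact bins into 1 of 3 classes, which gave 6401 pairs in the KLF4 list alone (KLF4-only), 57278 in the H3K27ac list alone (H3K27ac-only) and 18188 in both lists (shared). These 81867 pairs came from 6 of the 25 libraries of the study, whose 9 lists hold 493983 different pairs. The 4 KLF4 and 2 H3K27ac libraries were all made by HiChIP, which joins neighbouring DNA ends in fixed nuclei and then pulls down the joined fragments with an antibody. All 6 came from V6.5 ES cells grown in 2i medium, and the labels name no deletion, transgene or drug for them.

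The other lists served for comparison. Cells labelled TKO are given the same line and medium and were profiled for H3K27ac at 0 h and after 24 h of doxycycline (3 libraries each). The labels do not spell out TKO. MEFs, fibroblasts taken from embryos at E13.5, carried the OKSM reprogramming cassette, an rtTA3 transactivator and an Oct4-GFP reporter, each in 1 copy, and were profiled for H3K27ac at passage 3 (2 libraries). Such MEFs were also profiled for KLF4 after 3 days (3 libraries, in bulk) and 6 days (4 libraries, sorted for SSEA1) of doxycycline with ascorbic acid. Hi-C, which uses no antibody, was made from the ES cells and from MEFs (2 libraries each).

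KLF4 is a zinc finger transcription factor of the naive pluripotent state and 1 of the reprogramming factors, and it binds GC-rich sites that read GGGNGTGG. H3K27ac is an acetylation of histone H3 found at active promoters and enhancers, so H3K27ac HiChIP reports contacts among active elements. The 2i medium blocks the ERK and GSK3 kinases and holds ES cells in the naive state, where OCT4 (Pou5f1), SOX2, NANOG and ESRRB act with KLF2, KLF4 and KLF5.

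The promoters shown here belong to genes at the 2 ends of the comparison. Nanog, Pou5f1 and Mybl2 had shared pairs that were stronger in H3K27ac, and Runx1 (the downstream of its RefSeq starts) and Six3 had shared pairs that were stronger in KLF4. Sequences are from RefSeq (GRCm38.p6), run 5′ to 3′ on the gene's strand from 250 bases before to 50 bases after the start, and carry GGGNGTGG in capitals, searched on both strands (it reads CCACNCCC on the other strand). The windows are chr6:122707239-122707538 (plus strand), chr17:35505782-35506081 (plus strand), chr2:163054385-163054684 (plus strand), chr16:92697280-92697579 (minus strand) and chr17:85620584-85620883 (plus strand).
Nanog: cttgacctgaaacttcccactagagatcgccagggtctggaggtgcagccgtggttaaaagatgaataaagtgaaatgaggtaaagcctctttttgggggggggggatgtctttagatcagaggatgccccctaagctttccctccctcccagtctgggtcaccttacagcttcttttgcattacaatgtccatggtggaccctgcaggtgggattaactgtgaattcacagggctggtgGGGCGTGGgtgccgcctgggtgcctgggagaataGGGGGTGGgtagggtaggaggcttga
Pou5f1: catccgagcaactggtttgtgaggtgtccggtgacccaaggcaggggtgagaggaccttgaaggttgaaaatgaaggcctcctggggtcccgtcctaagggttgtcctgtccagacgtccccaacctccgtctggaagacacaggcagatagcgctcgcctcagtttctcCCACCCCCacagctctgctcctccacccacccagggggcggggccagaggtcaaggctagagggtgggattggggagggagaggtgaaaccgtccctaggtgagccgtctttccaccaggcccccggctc
Mybl2: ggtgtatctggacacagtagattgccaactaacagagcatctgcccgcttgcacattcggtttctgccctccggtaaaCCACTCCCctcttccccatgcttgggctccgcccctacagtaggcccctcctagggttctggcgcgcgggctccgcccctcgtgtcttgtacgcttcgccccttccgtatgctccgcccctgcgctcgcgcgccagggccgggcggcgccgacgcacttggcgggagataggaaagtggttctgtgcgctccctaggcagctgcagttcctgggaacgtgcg
Runx1: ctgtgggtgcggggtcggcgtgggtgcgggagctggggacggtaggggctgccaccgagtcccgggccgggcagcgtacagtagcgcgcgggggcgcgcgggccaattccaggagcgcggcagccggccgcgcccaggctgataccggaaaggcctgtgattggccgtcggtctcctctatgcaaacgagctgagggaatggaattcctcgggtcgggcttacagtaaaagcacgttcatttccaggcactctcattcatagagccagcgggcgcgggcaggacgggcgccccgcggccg
Six3: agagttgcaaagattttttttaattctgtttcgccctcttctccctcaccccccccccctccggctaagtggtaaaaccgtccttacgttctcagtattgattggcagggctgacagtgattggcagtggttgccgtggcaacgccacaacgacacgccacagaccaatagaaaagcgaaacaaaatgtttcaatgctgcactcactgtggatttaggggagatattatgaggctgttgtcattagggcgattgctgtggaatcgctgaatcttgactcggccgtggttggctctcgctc
The Nanog window holds 2 matches, the Pou5f1 and Mybl2 windows hold 1 each, and the Runx1 and Six3 windows hold 0. Over all 32851 promoters in the table, 17.6% hold GGGNGTGG. The share was 23.7% where the start bin was in both lists, 22.9% where it was in the KLF4 list alone, 18.7% in the H3K27ac list alone and 14.3% in neither. GC content moved with these shares, with medians of 59.7%, 58.3%, 56.7% and 48.7%. Among promoters of 60% GC or more, the shares were 29.6%, 28.2%, 24.7% and 26.9%. From 50% to 60% GC they were 21.7%, 23.9%, 18.7% and 20.1%, and below 50% GC 10.1%, 11.3%, 8.94% and 7.33%. The order of both lists and the KLF4 list alone thus changed with the band.

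The KLF4 libraries held 51853505 to 101991564 contacts and the H3K27ac libraries 166485051 and 168449387. The median listed pair rested on 14 to 24 counts in a KLF4 library and 45 to 47 in an H3K27ac library. Counts of KLF4 libraries 1 and 2 agree within sampling noise, as do those of 3 and 4, while libraries from different pairs differ. They therefore entered the test as 2 replicates (1 with 2, 3 with 4) against 2 H3K27ac replicates. The H3K27ac libraries differed beyond sampling noise, though only slightly. Their chi-square per degree of freedom was 1.05 (chi-square p = 3.66e-10 over 32243 pairs), where sampling noise alone gives about 1. It was 1.01 and 0.97 within the summed KLF4 libraries (9106 pairs) and 1.25 or more between them. The spread on the H3K27ac side is thus close to sampling noise. The labels do not say whether the libraries came from separate cultures, so p-values measure the spread between these samples, which may be technical. The labelled cell type was checked by H3K27ac pairs at marker genes. All 8 ES markers examined (Pou5f1, Sox2, Nanog, Esrrb, Zfp42, Klf2, Sall4, Dppa5a) had pairs in ES, 113 in sum, against 2 in sum in MEFs. The 8 fibroblast markers had 1 pair in sum in ES and 48 in MEFs. In the KLF4 list the ES markers had 21 pairs in sum and the fibroblast markers 4. Of 4 endoderm and trophoblast markers with a bin, Gata6 had 3 pairs and Eomes 1 in ES, and Cdx2 and Elf5 had 0.

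At the deposited list lengths, most pairs of the KLF4 list were also in the H3K27ac list. The KLF4 list is too short to hold most of the H3K27ac list, so the reverse could not arise. Of the 24589 pairs in the KLF4 list, 74.0% (95% Wilson interval 73.4% to 74.5%) were in the H3K27ac list, whereas 24.1% (23.8% to 24.4%) of the 75466 H3K27ac pairs were in the KLF4 list. Intervals here and below cover counting error alone. By anchor, 81.8% of the 25332 bins in the KLF4 list were also anchors of the H3K27ac list, and 51.7% of the 40136 H3K27ac bins were anchors of the KLF4 list. When an anchor was allowed to lie 1 bin away, 84.7% of the KLF4 list was found in the H3K27ac list. With both lists cut to their 24589 strongest pairs, 43.4% were shared, so the share moves with the lengths of the lists. Of the KLF4-only pairs, 39.5% joined bins that were both anchors of the H3K27ac list through other pairs, 32.0% had 1 such anchor and 28.4% had 0.

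At the deposited cutoffs, shared pairs were short and strong. They had a median distance between anchors of 20 kb, and 13.4% reached 50 kb or more, against 23.3% of KLF4-only pairs (median 20 kb) and 30.4% of H3K27ac-only pairs (median 30 kb). The order of the list-only classes turned with equal list lengths, where 22.4% of KLF4-only and 10.5% of H3K27ac-only pairs reached 50 kb. Strength is given in the authors' CPM, which scales a pair's count to the contact total of its chromosome. The median KLF4 CPM of shared pairs was 5.68, 5.82, 5.38 and 5.09 in libraries 1 to 4, or 5.49 ± 0.33 (SD, n = 4 libraries). For KLF4-only pairs it was 4.73, 4.98, 4.16 and 3.66, or 4.38 ± 0.59 (SD, n = 4 libraries). In each of the 4 libraries the shared pairs had the higher median. The median H3K27ac CPM was 7.63 and 7.83 for shared pairs and 5.03 and 5.13 for H3K27ac-only pairs. All listed pairs exceeded 3 CPM in KLF4 libraries 1 and 2 and in both H3K27ac libraries, so these medians are bounded from below. KLF4 libraries 3 and 4 were free of that bound, and both exceeded 3 CPM in 82.1% of shared pairs and 57.7% of KLF4-only pairs. Over the 18188 shared pairs, log2 mean CPM correlated between the antibodies (Pearson r = 0.66, Spearman rho = 0.65), as a description across sites that share chromosome scaling and distance.

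The cutoff of 3 CPM stood for different numbers of contacts on different chromosomes, because the CPM is taken per chromosome. In KLF4 library 2 it required 12 counts on chromosome 1 and 4 counts on chromosome 19. Chromosome 19 held 11.2% of KLF4-only pairs, 6.91% of H3K27ac-only pairs and 8.26% of shared pairs, and 30.8% of the KLF4-only pairs that reached 50 kb. With 1 count cutoff for all chromosomes, 2.63% of KLF4-only, 15.3% of H3K27ac-only and 2.06% of shared pairs reached 50 kb. KLF4-only and shared pairs were thus close in this share at that cutoff.

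The classes differed in the H3K27ac peaks known at their anchors. Because an H3K27ac antibody helped make the classes, these peaks are not independent of them. Among pairs whose anchors are both annotated in the authors' deposited table of TKO contacts, an H3K27ac peak at 0 h lay at both anchors of 17.4% of KLF4-only pairs (16.3% to 18.6%), 57.3% of H3K27ac-only pairs (56.9% to 57.7%) and 60.2% of shared pairs (59.5% to 60.9%). No anchor had a peak in 27.3%, 2.88% and 2.92%. The annotation covered both anchors of 65.9%, 95.9% and 97.9% of the classes, so it says least about KLF4-only pairs. Gene starts did not separate the classes in this way, since 52.7%, 53.2% and 46.3% of the pairs had no RefSeq gene start at either anchor.

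**Figure D1:**
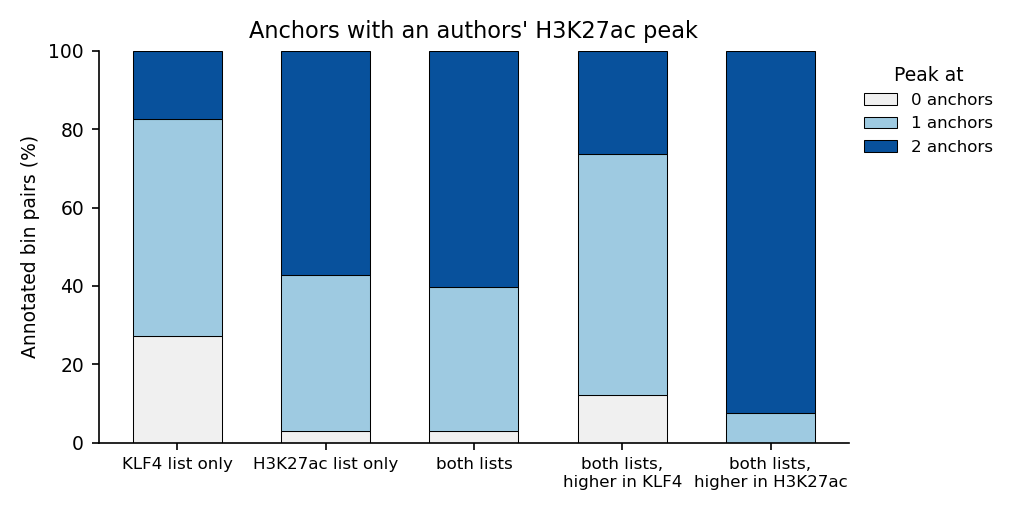
Bars give the percent of annotated bin pairs (y axis) with an authors' H3K27ac peak at 0, 1 or 2 anchors, for the 3 classes and for shared pairs called higher in KLF4 or in H3K27ac. Peaks at both anchors made up 17.4% of KLF4-only pairs and 92.3% of shared pairs higher in H3K27ac. These are H3K27ac peaks, so they are not independent of groups made with an H3K27ac antibody.

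Libraries that played no part in the classes gave different pictures for H3K27ac and for Hi-C. In the H3K27ac list of TKO cells at 0 h, 91.3% of shared pairs, 73.3% of H3K27ac-only pairs and 31.6% of KLF4-only pairs were found again. All 93248 pairs of that list have an H3K27ac peak at an anchor, which bars pairs without a peak. Among annotated KLF4-only pairs with a peak at 1 anchor 64.2% were found, and with peaks at both anchors 71.4%, against 73.5% and 82.2% of H3K27ac-only pairs. Only anchors of TKO pairs are annotated, so the pairs left out as unannotated could not be in that list. Both anchors were annotated in 65.9% of KLF4-only and 95.9% of H3K27ac-only pairs. The narrower gap among annotated pairs is therefore partly built in. In ES Hi-C, 60.2% of KLF4-only pairs (59.0% to 61.4%) were found, against 47.2% of H3K27ac-only pairs (46.8% to 47.6%) and 63.8% of shared pairs. The gap was also there at 50 to 90 kb, with 69.3% of KLF4-only and 46.7% of H3K27ac-only pairs, and at 100 kb or more, with 47.7% and 23.4%. Within pairs of like peak status it was smaller or absent at 0 and 1 peaks. Of annotated pairs without a peak, ES Hi-C held 72.4% of KLF4-only and 74.1% of H3K27ac-only pairs. It held 55.8% and 53.5% of those with 1, and 56.6% and 41.6% of those with peaks at both anchors.

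The lists from fibroblasts and reprogramming cells held a higher share of KLF4-only pairs than of H3K27ac-only pairs. MEF Hi-C held 49.0% (47.8% to 50.2%) and 31.9% (31.6% to 32.3%), and MEF H3K27ac held 22.1% (21.1% to 23.1%) and 18.2% (17.9% to 18.5%). The day 3 KLF4 list held 19.5% (18.5% to 20.5%) and 8.35% (8.13% to 8.58%). The far shorter day 6 list (4047 pairs) held 5.55% (5.01% to 6.13%) and 1.12% (1.04% to 1.21%). None of these 4 sets of intervals overlapped. In MEF H3K27ac the order did not hold for adjacent bins, at 23.8% (22.01% to 25.6%) of KLF4-only and 25.1% (24.4% to 25.9%) of H3K27ac-only pairs, while at 30 to 40 kb the shares were 21.7% and 16.8%. Adjacent bins made up 33.1% of KLF4-only and 22.6% of H3K27ac-only pairs. Shared pairs were at 33.8% on day 3 and 9.48% on day 6. Of pairs at 100 kb or more within the span of the ES domains (TADs), 4.61% of KLF4-only (3.21% to 6.59%), 6.42% of H3K27ac-only (5.80% to 7.09%) and 2.41% of shared pairs (1.46% to 3.93%) crossed a domain boundary. The first 2 intervals overlap.

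**Figure D2:**
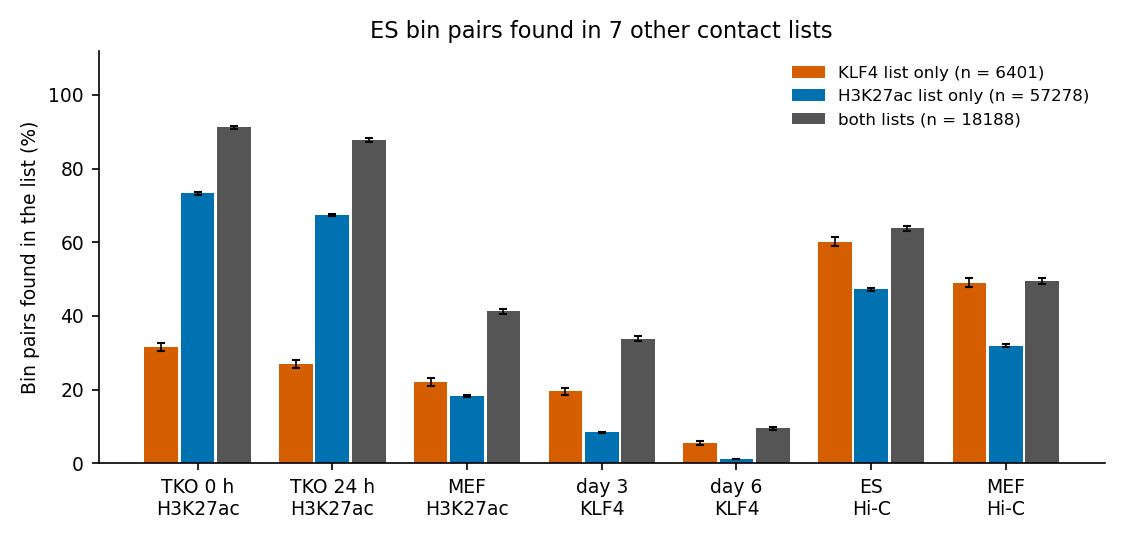
Bars give the percent of bin pairs of each ES class (y axis) that were found, in the same bins, in 7 lists from other libraries (x axis), with 95% Wilson intervals for counting error. KLF4-only pairs are lowest in TKO H3K27ac (31.6% at 0 h) and lie between H3K27ac-only pairs and shared pairs in ES Hi-C (60.2%).

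Among the 18188 shared pairs, 5968 (32.8%) differed between the antibodies by edgeR's quasi-likelihood test at a Benjamini-Hochberg adjusted p under 0.05, and 7779 had an unadjusted p under 0.05. Of these, 2119 (11.7%) were higher in KLF4, with a median log2 fold change of 0.69, and 3849 (21.2%) were higher in H3K27ac, with a median of -0.87. Fold changes are KLF4 minus H3K27ac after TMM scaling, which sets the median pair near 0 (0.01). Scaling by contact totals alone put the median pair at -0.49 and the split at 63 higher in KLF4 and 8346 higher in H3K27ac. "Higher in KLF4" is thus relative to the other shared pairs. DESeq2 called 1986 pairs, 189 higher in KLF4 and 1797 higher in H3K27ac. It gave no adjusted p for 6347 of the 18188 pairs, which count as not called here and in the gene lists below. Fits without H3K27ac library 1 or 2 put the median pair at 0.0008 or 0.005. They hold 1 H3K27ac sample, which is assumed to vary like the KLF4 replicates. The 2 sets also differed in peaks, distance and presence in other lists. The peaks are of H3K27ac, the mark that 1 of the 2 antibodies pulls down, so they are not independent of the split. Peaks lay at both anchors of 26.4% of annotated pairs higher in KLF4 and of 92.3% of those higher in H3K27ac. Their median distances were 10 and 20 kb, and 68.1% and 55.7% were in ES Hi-C, beside 65.5% of pairs not called. The short day 6 KLF4 list held 15.2% and 7.98%, beside 8.96% of pairs not called. In the longer day 3 KLF4 list the 2 sets were close, at 39.0% and 36.8%, beside 31.9% of pairs not called.

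**Figure D3:**
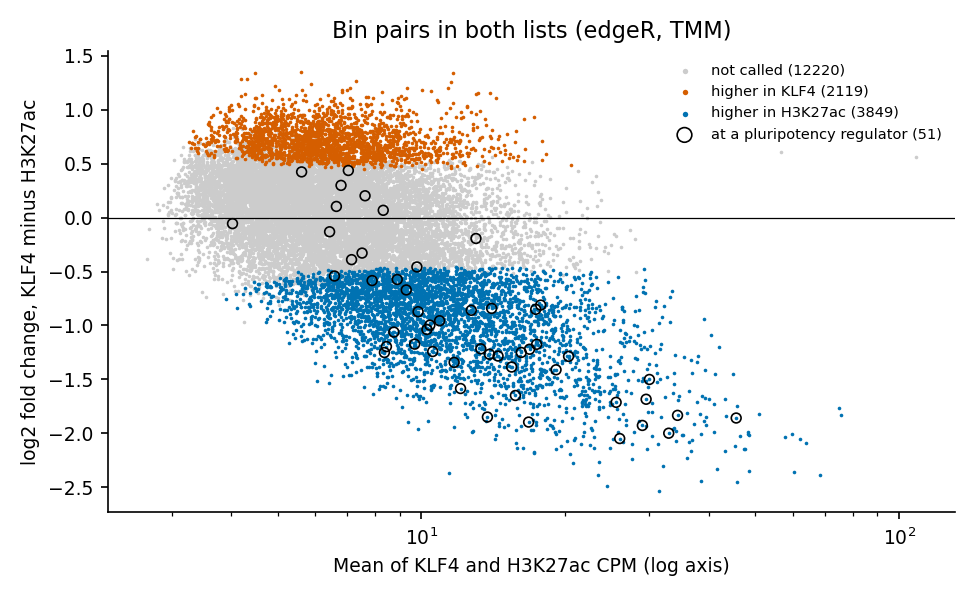
Each point is a bin pair in both lists, placed by the mean of its KLF4 and H3K27ac CPM (x axis, log scale) and its log2 fold change, KLF4 minus H3K27ac (y axis). Called pairs are coloured, and open circles mark the 51 pairs at a pluripotency regulator, of which 39 were higher in H3K27ac and 0 higher in KLF4 under TMM scaling.

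Pluripotency regulators had more H3K27ac than KLF4 contacts, as most genes did. Of 30 such genes, 22 had a start bin in the promoter table. By their first start bin, 19 had more H3K27ac than KLF4 pairs, 0 had more KLF4 pairs, 2 (Nr0b1 and Nr5a2) had 1 of each and Esrrb had 0. Over all 11449 genes with any pair, 78.2% had more H3K27ac and 13.0% more KLF4 pairs, with medians of 1 KLF4 and 3 H3K27ac pairs. The 22 genes held 50 KLF4 and 207 H3K27ac pairs, where all genes together held 18119 and 52515, and the H3K27ac list is the longer. Of the 50 KLF4 pairs 49 were shared. Nanog, a homeodomain factor of the naive state, had 3 KLF4 and 23 H3K27ac pairs, Mycn, a MYC family factor, had 5 and 23, and Pou5f1 had 7 and 17. Jarid2, a partner of the Polycomb complex PRC2, had 5 and 16, Tdgf1, a NODAL co-receptor, 3 and 14, and Sox15 3 and 13. Fgf4, the growth factor that drives exit from the naive state, had 4 and 12. Klf2 and Zfp42 (Rex1) had 3 and 11 and 2 and 11, Dnmt3l 3 and 8, and Tcl1 3 and 7. The methylcytosine oxidases Tet1 and Tet2 had 2 and 7 and 1 and 7, Utf1 2 and 7, and Lin28a, an inhibitor of let-7 maturation, 1 and 5. Sox2 had 0 and 6, Tfcp2l1 0 and 7 and Zfp281 0 and 7, where 0 means that no KLF4 pair passed the cutoff. Further start bins of Esrrb and Nr5a2 had 0 and 6 and 3 and 9. Klf4 itself had 1 KLF4 pair and 4 H3K27ac pairs, with no pair shared. Of regulators placed by the authors' deposited table, Sall4 had 3 KLF4 and 20 H3K27ac pairs, Dppa5a 3 and 19, Tbx3 2 and 13, Klf5 3 and 8, Prdm14 2 and 7, Dppa4 2 and 5 and Lefty2 1 and 5.

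Where a regulator did have a shared pair, that pair was usually stronger in H3K27ac. The 51 shared pairs at their start bins gave 39 pairs higher in H3K27ac and 0 higher in KLF4, with a median log2 fold change of -1.17, beside 21.2%, 11.7% and 0.01 for all shared pairs. Across the other fits of all 51 pairs, 29 to 44 were higher in H3K27ac, and 1 was higher in KLF4 without KLF4 library 1, alone or with library 2. The pair of Pou5f1 with the bin 10 kb before it had KLF4 CPMs of 9.69, 10.3, 9.70 and 13.9 and H3K27ac CPMs of 46.0 and 50.3. The groups did not overlap, and the log2 fold change was -1.68 ± 0.24 (SE, edgeR adjusted p = 1.93e-06). All 7 shared pairs of Pou5f1 were higher in H3K27ac, from -1.25 to -2.05, and they reached from 20 kb before its bin to 50 kb after it, at Cdsn. At Nanog the pair with the bin 10 kb before had KLF4 CPMs of 5.48, 3.62, 5.59 and 5.98 and H3K27ac CPMs of 28.1 and 28.6 (-1.89 ± 0.23 SE, edgeR adjusted p = 3.43e-07). All 3 Nanog pairs, all 5 of Jarid2, all 4 of Fgf4 and all 3 of Klf2, Tdgf1 and Sox15 were higher in H3K27ac. At Tdgf1 the pair with the Lrrc2 bin set KLF4 libraries 1 and 2 (7.20 and 9.20 CPM) apart from 3 and 4 (19.3 and 23.2 CPM), with all 4 below H3K27ac (77.0 and 75.9 CPM, edgeR adjusted p = 0.000647).

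Mycn, by contrast, had some of each kind. A pair with a bin 160 kb away had KLF4 CPMs of 4.41, 5.25, 10.7 and 10.4 against 32.5 and 28.6 for H3K27ac (-1.41 ± 0.24 SE, edgeR adjusted p = 2.66e-05). A second pair was called at -0.86. A pair with the bin 10 kb on the other side had 7.26, 5.25, 6.24 and 5.97 against 5.83 and 8.95, and the groups overlapped (0.30 ± 0.22 SE, edgeR adjusted p = 0.311). The 12 pairs of the regulators that missed the threshold were at Mycn (3), Nr5a2, Tcl1 and Dnmt3l (2 each), Nr0b1, Utf1 and Lin28a (1 each).

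**Figure D4:**
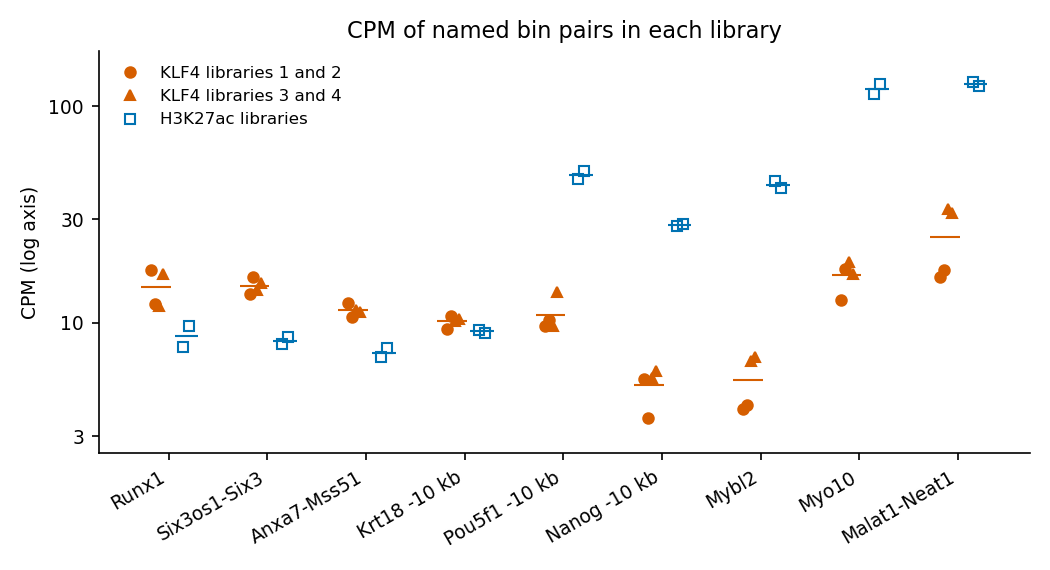
Points are the CPM of 9 shared bin pairs (x axis, named by gene, and for the list genes by the offset of the partner bin) in each KLF4 and H3K27ac library (y axis, log scale), and lines are group means. The first 4 pairs lie above in KLF4, as at Runx1 (17.4, 12.2, 11.96 and 16.8 against 7.74 and 9.63), and the last 5 lie above in H3K27ac.

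The signalling and family lists differed among themselves, and their counts stand beside 21.2% higher in H3K27ac and 11.7% higher in KLF4 over all shared pairs. Pairs at 1 gene share its start bin, so a few genes can carry the count of a list. Of 34 shared pairs at LIF and STAT3 pathway genes, 17 were higher in H3K27ac and 0 in KLF4 (median -0.56), with 10 under DESeq2 and 11 or 10 without H3K27ac library 1 or 2. All 7 pairs of Pim3, a survival kinase, were higher in H3K27ac, while the 3 pairs of Stat3 itself, the factor that LIF activates, were not called (0.10, -0.14 and -0.10). Of 35 pairs at KLF and SP family genes, 18 were higher in H3K27ac and 0 in KLF4 (median -0.59). These 18 lay at Klf9, Sp1, Klf6 and Klf2, which is also among the pluripotency regulators. The pairs at Klf1, Klf8, Klf11, Klf15, Sp2 and Sp3 were not called. DESeq2 gave 9 and 0, and the replicate block 18 and 3. In the replicate block, libraries of the same number form a block, so only libraries 1 and 2 of each antibody inform the difference. Klf9 led that list with 10 KLF4 and 22 H3K27ac pairs, and Sp1 had 5 and 18. FGF and ERK genes had 8 of 21 higher in H3K27ac and 1 in KLF4, and 4 of the 8 were those of Fgf4, counted above with the pluripotency regulators. Cell cycle genes had 9 of 32 and 0, a share near that of all shared pairs, with 3 under DESeq2. The loop machinery (cohesin, Mediator and cofactors) had 4 of 21 and 1, also near it, and the 4 fell to 0 under DESeq2 and without H3K27ac library 1 or 2 and to 1 with the replicate block or without KLF4 library 1 or 4. By pair numbers, all 14 of its genes with a pair had more H3K27ac than KLF4 pairs, as did 78.2% of all genes with a pair. Smc3, a cohesin subunit, had 0 KLF4 and 20 H3K27ac pairs. Of 7 shared pairs at WNT pathway genes, 3 were higher in KLF4 and 1 in H3K27ac, a direction that turned under contact totals (0 and 3). DESeq2 called 0 of the 7.

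Genes of the primed state and of extraembryonic lineages had medians above 0 under TMM scaling. Of 24 shared pairs at primed pluripotency genes, 4 were higher in KLF4 and 1 in H3K27ac (median 0.32), near the 11.7% of all shared pairs for KLF4. Under contact totals the median was -0.18 with 0 and 4, so this direction rests on the scaling. DESeq2, and the fits without H3K27ac library 1 or 2, called 0 either way. Dnmt3b, a de novo DNA methyltransferase, had 5 KLF4 and 4 H3K27ac pairs, Foxd3 5 and 4 and Tead2 7 and 6, while Otx2 had 1 and 5. Of 10 shared pairs at endoderm and trophoblast markers, 6 were higher in KLF4 and 0 in H3K27ac (median 0.60). Under contact totals the median stayed at 0.10 with 0 called either way. DESeq2 also called 0, the replicate block 3, and the fits without H3K27ac library 1 or 2 called 2 or 1. All but 1 of the 6 lay at the keratin pair Krt8 and Krt18 or at Gata2. The pair of Krt18 with the bin 10 kb before it had KLF4 CPMs of 9.39, 10.7, 10.2 and 10.4 against 9.26 and 9.01 for H3K27ac, with no overlap (0.64 ± 0.19 SE, edgeR adjusted p = 0.00864). Gata3, a trophoblast and T cell factor, had 2 KLF4 pairs and 0 H3K27ac pairs, though both KLF4 pairs were in the TKO 0 h H3K27ac list, which held 3 pairs of that bin. The fibroblast markers had 2 shared pairs, both at S100a4, 1 of them higher in KLF4. Of fibroblast markers placed by the authors' deposited table, Col1a1 had 3 KLF4 and 0 H3K27ac pairs in ES cells and Thy1 1 and 0. Fn1 had 3 and 5, Pdgfrb 0 and 1, and Tagln and Zeb1 0 and 0.

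**Figure D5:**
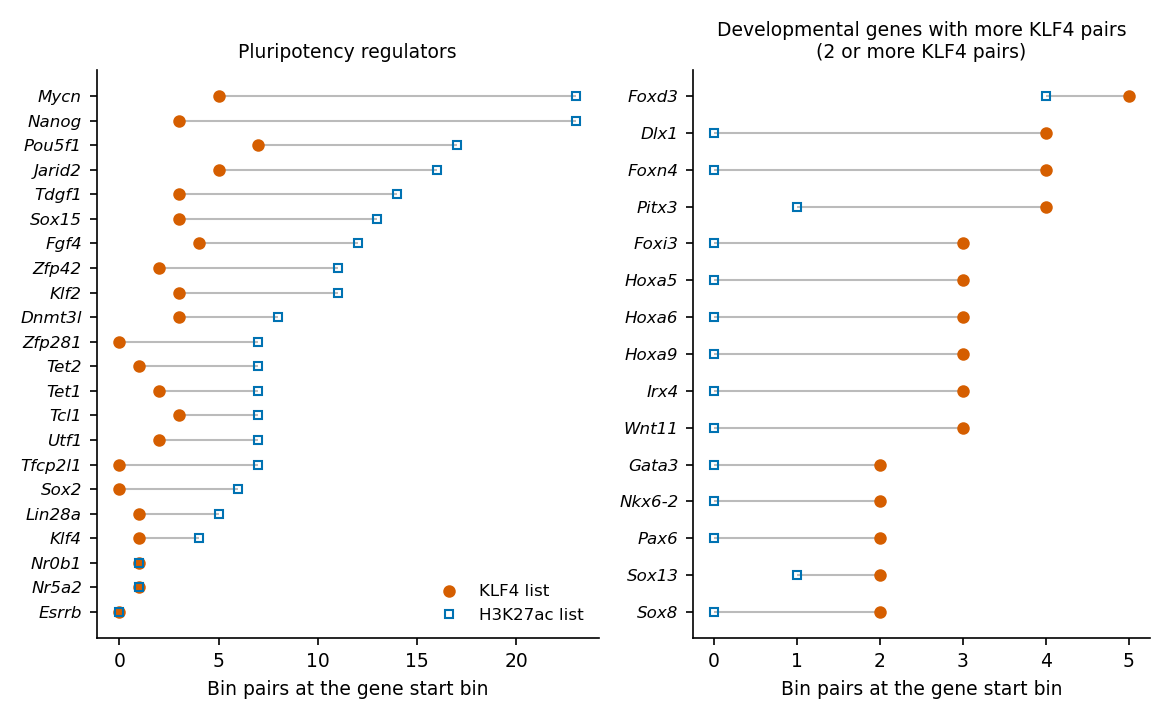
Points give the number of bin pairs (x axis) of the KLF4 list (circles) and the H3K27ac list (squares) at the first start bin of each gene (y axis). On the left are the 22 pluripotency regulators, 19 of them with more H3K27ac pairs, and on the right the 15 developmental genes with more KLF4 than H3K27ac pairs and at least 2 KLF4 pairs, a set chosen after the values were seen.

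The 8 shared pairs with a named gene and the largest fold change toward KLF4 lay at genes of varied kinds. At Runx1, a regulator of blood formation, the pair of the start bin with its neighbour had KLF4 CPMs of 17.4, 12.2, 11.96 and 16.8 against 7.74 and 9.63, with no overlap (1.34 ± 0.19 SE, edgeR adjusted p = 1.82e-06). The pair of Six3, a homeodomain factor of the forebrain and eye, with its antisense neighbour Six3os1 had 13.6, 16.3, 14.2 and 15.3 against 7.96 and 8.60 (1.26 ± 0.19 SE, edgeR adjusted p = 4.86e-06). Both pairs were in ES Hi-C and absent from both TKO lists, and neither Six3 bin is annotated there. The pair of Anxa7 and Mss51 had 12.4, 10.6, 11.5 and 11.2 against 6.95 and 7.62 (1.20) and was found in all 7 other lists. The others by this rule were at Dsp, a desmosome protein (1.28), Gtf2f2 (1.27), BB123696 (1.20), Gm29595 (1.35) and Gcnt1 (1.34). The Gm29595 pair overlapped between antibodies (4.57 to 11.3 against 3.06 and 5.09 CPM), and the Gcnt1 pair lost its call under contact totals (0.85, edgeR adjusted p = 0.0583).

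The largest changes toward H3K27ac were larger. Mybl2, a cell cycle factor, had a pair with a bin 20 kb away at KLF4 CPMs of 4.02, 4.18, 6.63 and 6.93 against 45.1 and 41.8 (-2.48 ± 0.34 SE, edgeR adjusted p = 1.27e-06), and a second pair at -2.26. Both were in both TKO lists and in neither MEF H3K27ac nor KLF4 lists of day 3 and day 6. Myo10, an unconventional myosin, had 12.7, 17.7, 19.04 and 16.8 against 114 and 126 (-2.38), and Eif2s2, a translation initiation subunit, reached -2.28. The pair at Ooep (-2.15) shares its other bin with Dppa5a in the authors' deposited table. Without H3K27ac library 1 or 2 the Myo10 pair was at -2.44 or -2.34 and the Ooep pair at -2.11 or -2.19, and both missed the threshold (edgeR adjusted p of 0.0806 to 0.0874) with 1 H3K27ac sample left. The rest were at Gm32673 (-2.24), Gm52564 (-2.14) and Gm13056 (-2.14). All 8 of these pairs had peaks at both anchors.

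The strongest pairs were few and local. Among those by CPM in both lists was the contact of the noncoding RNA gene Malat1 with the bin 40 kb away that the authors' deposited table assigns to Neat1, another nuclear noncoding RNA. It had KLF4 CPMs of 16.3, 17.5, 33.5 and 32.0 against 129 and 123 for H3K27ac (-1.83 ± 0.34 SE, edgeR adjusted p = 0.000107) and was found in all 7 other lists. Pairs within 3130001 to 3200000 of chromosome 11, near its start, gave the strongest 4 of the KLF4-only class (32.4 to 111 mean CPM) and 4 of the strongest 5 of the H3K27ac-only class (59.6 to 140). They carried no H3K27ac peak and were in the Hi-C of both cell types. Without the first 5 Mb of chromosome 11, the count of called pairs was 5970. Outside it the strongest KLF4-only pairs were all on chromosome 19 (16.3 to 18.9 mean CPM), 1 of them at Ide, insulin degrading enzyme. The strongest H3K27ac-only pairs outside it were at Gng3 and Bscl2 (60.3 mean CPM), Spats1 (41.7) and Mcl1, a survival factor (38.0), and 2 had no RefSeq start. In this CPM a count weighs more on chromosome 19 (1311816 contacts in KLF4 library 2) than on chromosome 1 (3987001), so such rankings favour chromosome 19.

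KLF4-only pairs gathered at some bins. The start bin of Gbf1, a guanine nucleotide exchange factor of the Golgi, on chromosome 19 (46150001 to 46160000 of mm10), had 17 KLF4 pairs, 16 of them KLF4-only, and 2 H3K27ac pairs. It had no authors' H3K27ac peak, and it had 15 pairs in the MEF H3K27ac list and 11 in the day 6 KLF4 list. Its KLF4-only pairs had mean CPMs of 2.76 to 15.8 and partners 10 to 160 kb away. Lrrc10b had 9 KLF4 and 1 H3K27ac pairs, and 13 pairs in the day 3 KLF4 list. The bin that the authors' deposited table assigns to Col14a1, a fibril-associated collagen, had 9 and 2. Bins on chromosome 19 (43800001, 13 and 3) and chromosome 17 (24800001, 11 and 2) had no named gene. A ranking of bins by list-only pairs is not independent of H3K27ac peaks, and the share of all bins with a peak is not given here. None of the 5 bins above had a peak. The 5 bins with most H3K27ac-only pairs all had a peak. They included Hes1, a NOTCH target (7 KLF4 and 37 H3K27ac pairs), Neat1 with Frmd8os (7 and 37), Ehd1 with Gm14963 (10 and 39) and 2410152P15Rik (7 and 45), by the same table, and a bin of chromosome 17 (66480001, 7 and 39). The bins with most KLF4 pairs of any class were all on chromosome 19, where the cutoff took fewer counts than on chromosome 1. They also had many H3K27ac pairs, with Snx15 at 21 and 31, Uqcc3 at 19 and 36, Pola2 at 18 and 26 and Rcor2, a corepressor subunit, at 18 and 40. The bin at 8990001 had 20 and 32.

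By gene, 7638 of 27025 genes had a KLF4 pair at the first start bin and 10439 an H3K27ac pair, with 6628 in both groups. KLF4 pairs without an H3K27ac pair were found at 1010 genes and the reverse at 3811. Cplx1, a synaptic complexin, had 6 KLF4 and 0 H3K27ac pairs. Col13a1, a transmembrane collagen, and Cyp26c1, a retinoic acid hydroxylase, had 5 and 0 each. These 3 were named after their values were seen.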

How the data were processed

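Per the submitters' processing notes, reads were aligned to mm10, with Bowtie2 2.2.3 among the tools. The contact caller is not given in the sources used here. Per the file headers, the authors deposited for each bin pair and library the raw count, a CPM value and a distance ratio, with 1 p-value and 1 FDR. Count over CPM gave 1 whole number per chromosome in all 6 ES libraries, taken as its contact total. The deposited ratio, p-value, Hi-C signal and TAD score were not used as strengths. An absent pair may have any value under the cutoffs.

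Shared pairs were tested on counts with edgeR 4.0.16 (R 4.3.3, quasi-likelihood, filterByExpr, TMM on contact totals, Benjamini-Hochberg), with DESeq2 1.42.0 as an alternative. The edgeR fit was also run on simulated counts with known changes. Replicate libraries were summed at a chi-square p of 0.05 or more. Same-numbered libraries did not deviate together (correlations -0.0091 and -0.0003). Gene starts came from RefSeq (GRCm38.p6). Of the authors' 12698 gene and bin combinations 9383 had an entry of that symbol, and 94.5% of those fell in its bin. Genes without an entry there used the authors' names, and some had neither. Tables used Python 3.11.15, pandas 2.3.3, numpy 2.4.6 and scipy 1.17.1, and figures matplotlib 3.10.9.

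Named are the 5 strongest pairs per class, the 8 largest called changes in each direction with a gene, the 5 bins with most pairs per list, and genes of 10 lists. Members and lists were chosen with earlier results of these data known.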

Additional observations from a re-analysis of the deposited data

How the results depend on the processing

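The share of the KLF4 list in the H3K27ac list (74.0%) was 84.7% with anchors 1 bin away, 43.4% with equal list lengths, 74.8% with 1 count cutoff and 62.0% at 50 kb or more. The called pairs (5968) numbered 1986 with DESeq2, 454 of 2438 tested at 50 kb or more, and 3096 to 5762 when 1 library was left out. The fit with all 6 libraries separate and a replicate block called 5518 pairs. KLF4 libraries 3 and 4 have no H3K27ac library of their number, so only libraries 1 and 2 inform the antibody difference in it. KLF4 libraries 1 and 2, which agree within sampling noise, count as separate replicates there. Library numbers do not pair the samples. Leaving out KLF4 libraries 1 and 2 together, or 3 and 4 together, chosen after seeing the data, gave 4992 and 5393, with 1 KLF4 sample left.

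The share at 50 kb or more with equal lengths and with 1 count cutoff was 10.5% and 15.3% for H3K27ac-only pairs and 7.57% and 2.06% for shared pairs, and 2.63% with 1 count cutoff for KLF4-only pairs. Median CPM with equal lengths and with 1 count cutoff was 6.578 and 6.574 (KLF4) and 10.6 and 9.15 (H3K27ac) for shared pairs and 8.74 and 6.57 for H3K27ac-only pairs, and 5.65 with 1 count cutoff for KLF4-only pairs. With 1 library left out the H3K27ac-only median was 5.03 to 5.13. The TKO 0 h share with anchors 1 bin away, equal lengths and 50 kb or more was 56.3%, 59.1% and 25.1% for KLF4-only, 92.2%, 92.6% and 62.7% for H3K27ac-only, and 96.3%, 97.4% and 85.0% for shared pairs. The ES Hi-C share was 86.1%, 63.7% and 59.99%, then 82.9%, 49.4% and 39.1%, then 90.95%, 61.7% and 68.5%. The order of the classes in TKO 0 h held in each, whereas in ES Hi-C KLF4-only pairs passed shared pairs at equal lengths. The median log2 ratio of pair numbers at pluripotency regulators, relative to all genes, was -0.58, -0.66 with equal lengths and -0.70 over all start bins. List membership could not be recomputed without a library, since pairs under the cutoffs are not listed. The causes were not tested.

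Over the 16 named called pairs and their alternatives, 246 values kept direction and call, 6 kept the direction without the call, and 3 had no adjusted p in DESeq2. Depth limits single pairs, with medians of 14 to 47 counts.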

Other observations

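Transcription factor and ligand families of the embryo leaned to the KLF4 list. The families, matched by symbol and chosen after the data were seen, were Hox, Lhx, Pax, Nkx, Dlx, Irx, Gata, Runx, Tbx, Fox, Sox, Pitx, Otx, Meis, Isl, Neurod, Neurog and Wnt, with 138 genes. Of the 61 with any pair, 34 (55.7%, Wilson interval 43.3% to 67.5%) had more KLF4 than H3K27ac pairs at their first start bin, beside 13.0% of all genes with a pair. KLF4 pairs without any H3K27ac pair were found at 31 of them (50.8%), beside 8.82% of all genes. The 34 genes lay in 31 bins, because neighbouring Hox genes share bins, and most had 1 to 3 pairs. No test was made of a list chosen in this way.

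Dlx1, a homeodomain factor of forebrain interneurons, had 4 KLF4 and 0 H3K27ac pairs, as did Foxn4, a retinal progenitor factor. Pitx3, which acts in dopaminergic neurons and the lens, had 4 and 1, and its bin lies next to that of Gbf1. Irx4, a factor of the cardiac ventricle, had 3 and 0, Hoxa9 3 and 0, Pax6 2 and 0 and Gata3 2 and 0. Several of these bins were also anchors in Hi-C, with 7 ES and 4 MEF pairs at Dlx1, 10 and 9 at Foxn4 and 7 and 4 at Irx4. In the MEF H3K27ac list Dlx1, Foxn4 and Irx4 had 0 pairs and Hoxa9 had 3. The TKO 0 h H3K27ac list had 2 pairs at Dlx1, 3 at Gata3 and 0 at Foxn4, Pitx3, Irx4, Hoxa9 and Pax6. Of the 37 shared pairs at these families, 14 were higher in KLF4 and 5 in H3K27ac (edgeR, TMM scaling), beside 11.7% and 21.2% of all shared pairs. These counts describe a list chosen after the data were seen and add no support for its lean. They are relative to TMM scaling, since contact totals put 63 of all 18188 shared pairs higher in KLF4. Counts for the 37 pairs under other fits are not given here.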
